A study of Homo sapiens with 11 samples.

Results

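The elements described here were the 4281 annotated copies of the HERV-K group of human endogenous retroviruses whose names begin with HERVK or LTR5, of 5622516 repeat elements counted in RNA bound by J2, an antibody to double-stranded RNA. Each named element is called a copy here, but some share a number in their name, such as HERVK3-int_35330_4 and HERVK3-int_35330_5. Whether those are pieces of 1 copy is not known. The 4281 elements were chosen by name alone. They comprised 2780 copies in 10 subfamilies of internal proviral sequence (HERVK-int, HERVK3-int, HERVK9-int, HERVK11-int, HERVK11D-int, HERVK13-int, HERVK14-int, HERVK14C-int, HERVK22-int and HERVKC4-int) and 1501 copies in 4 subfamilies of long terminal repeat (LTR5_Hs, LTR5A, LTR5B and LTR5). The cells were HCT116, an established human colorectal carcinoma line. J2 libraries numbered 3, with 1 per condition: siRNA against luciferase (siLuc, the control siRNA) with the solvent DMSO, the same siRNA with decitabine (DAC), and siRNA against Staufen1 (siStau1) with DAC. DAC is a cytidine analogue that lowers DNA methylation and was given at 500 nM for 5 days, and all 3 cultures carried an siRNA. Total RNA of 8 further libraries was sequenced in 4 groups of 2 libraries (siLuc and siStau1, each with DMSO and with DAC). The 11 libraries include no J2 library of siStau1 with DMSO. For the 3 enriched libraries the labels give J2, while a protocol text shared by all 11 libraries names an antibody to Staufen1, so which antibody was used is uncertain.

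A HERV-K provirus consists of an internal part, with the gag, pro, pol and env genes, between long terminal repeats (LTRs) that hold the promoter, enhancer and polyadenylation signal. Most copies in the genome are solitary LTRs, left when the LTRs of a provirus recombined and the internal part was lost. HERVK-int with LTR5_Hs, LTR5A and LTR5B makes up the youngest group, which still encodes viral proteins in some copies and is held silent in most adult cells by DNA methylation and by KRAB zinc finger proteins with TRIM28. The other internal subfamilies belong to older relatives with LTRs of other names, such as MER9 for HERVK9-int, MER11 for HERVK11-int, LTR13 for HERVK13-int and LTR22 for HERVK22-int, and HERVKC4-int is the copy type known from the complement C4 genes. Staufen1 is a protein that binds double-stranded RNA, and the series title relates the study to immune signalling by double-stranded RNA of retroviral origin when DNA methylation is inhibited.

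The J2 tables give elements a name with a number whose meaning is not stated, and no position, so no sequence of a single element can be given. Genes named for HERV-K loci, measured in total RNA, do have positions, and DNA methylation, which DAC lowers, lies mainly on CG dinucleotides. The start regions of the 2 such genes that were tested are therefore shown, from 250 bases before to 50 bases after the RefSeq start (GRCh38.p14), 5′ to 3′ on the gene's strand with every CG in capitals. ERVK13-1 starts on the minus strand (chr16:2673390-2673689) and ERVK3-1 on the plus strand (chr19:58305127-58305426).
ERVK13-1: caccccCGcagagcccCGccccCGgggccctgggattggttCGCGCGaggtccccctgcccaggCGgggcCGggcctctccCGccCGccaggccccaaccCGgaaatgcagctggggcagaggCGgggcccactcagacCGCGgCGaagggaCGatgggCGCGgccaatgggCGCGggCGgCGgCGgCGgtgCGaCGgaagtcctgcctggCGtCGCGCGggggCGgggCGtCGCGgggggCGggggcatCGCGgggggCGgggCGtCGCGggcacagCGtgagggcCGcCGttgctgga
ERVK3-1: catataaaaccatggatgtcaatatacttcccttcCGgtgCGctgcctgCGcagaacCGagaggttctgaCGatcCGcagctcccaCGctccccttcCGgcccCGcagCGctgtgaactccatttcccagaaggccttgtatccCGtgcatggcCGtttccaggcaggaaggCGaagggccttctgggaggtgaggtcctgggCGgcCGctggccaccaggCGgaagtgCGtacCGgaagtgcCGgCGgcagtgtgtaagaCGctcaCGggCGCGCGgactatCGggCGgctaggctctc
ERVK13-1 held 44 CG dinucleotides at a GC content of 80.7%, and 4.19% of 35116 start regions of the same length held as many. ERVK3-1 held 27 at a GC content of 63.7%, and 28.2% held as many. The median over all start regions was 14, and 96.0% held at least 1 CG, which reads the same on both strands.

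Reads on repeat elements totalled 71473124 with siLuc DMSO, 68944777 with siLuc DAC and 83037330 with siStau1 DAC. Alu elements, short inverted-repeat-forming elements abundant in double-stranded RNA, took 57.5%, 46.8% and 54.0% of these reads, and all LTR elements took 5.37%, 6.66% and 6.98%. Because every value below is scaled to the reads on repeats, the Alu share moves all other elements, and its part in the results was not tested beyond the scalings given. Staufen1 mRNA, the knockdown target, was at 35.5 FPKM with siLuc DMSO, 33.7 with siLuc DAC, 30.0 with siStau1 DMSO and 27.1 with siStau1 DAC in the authors' deposited table, with q-values of 0.767 and 0.685 for siStau1 over siLuc with DMSO and with DAC. The siStau1 groups are therefore named as labelled. In total RNA, 6 of 7 epithelial markers were at 1 FPKM or more in every group, and of 8 markers of blood, endothelial and fibroblast cells at most 1, COL1A1, reached that level. The summed level of those 8 markers was 1.65, 10.8, 1.14 and 8.05 FPKM in these 4 groups in the same order, and 6, 0, 3 and 0 of them were listed at 0. Their part in the results below was not tested.

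HERV-K and LTR5 copies made up a small and uneven share of J2 RNA. With siLuc DMSO they held 44942 reads, or 0.0629% of the reads on repeats (exact 95% binomial interval 0.0621 to 0.0637). With siLuc DAC they held 61305 reads, or 0.0889% (0.0879 to 0.0899), and with siStau1 DAC 69475 reads, or 0.0837% (0.0828 to 0.0846). The share was lowest in siLuc DMSO and highest in siLuc DAC, and the 3 intervals do not overlap. Intervals here and below count each pair of mates as 1 draw, because even read numbers prevailed (in siLuc DMSO, 486 of these copies had 2, 4 or 6 reads and 107 had 1, 3 or 5), and they cover counting error only. With 1 library per condition there are no replicates and no test, and a difference between conditions cannot be told apart from one between libraries. In bulk RNA, fewer cells that transcribe an element and less of its RNA per cell cannot be told apart either.

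Most copies had no read at this depth. No read fell on 2519 of the 4281 elements (58.8%) in any library. This share was 65.6% for all repeat elements, 73.4% for those outside Alu and 69.7% for LTR elements. A read in all 3 libraries was found for 921 of the 4281, and for 910341 of the 5622516 repeat elements. In the internal subfamilies 70.0% of copies had no read, near the 71.4% of all internal LTR elements. In the LTR5 subfamilies 38.2% had none, against 69.4% of LTR elements that are not internal. The reads were concentrated: 79 elements held 50% and 460 held 90% of the reads summed over the 3 libraries. LTR5_Hs alone took 39.4% of the HERV-K and LTR5 reads with siLuc DMSO, 34.5% with siLuc DAC and 36.8% with siStau1 DAC, and LTR5B took 24.5%, 19.8% and 21.9%. Element lengths are not in the tables, so levels are compared between libraries and not between subfamilies per length.

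**Figure D1:**
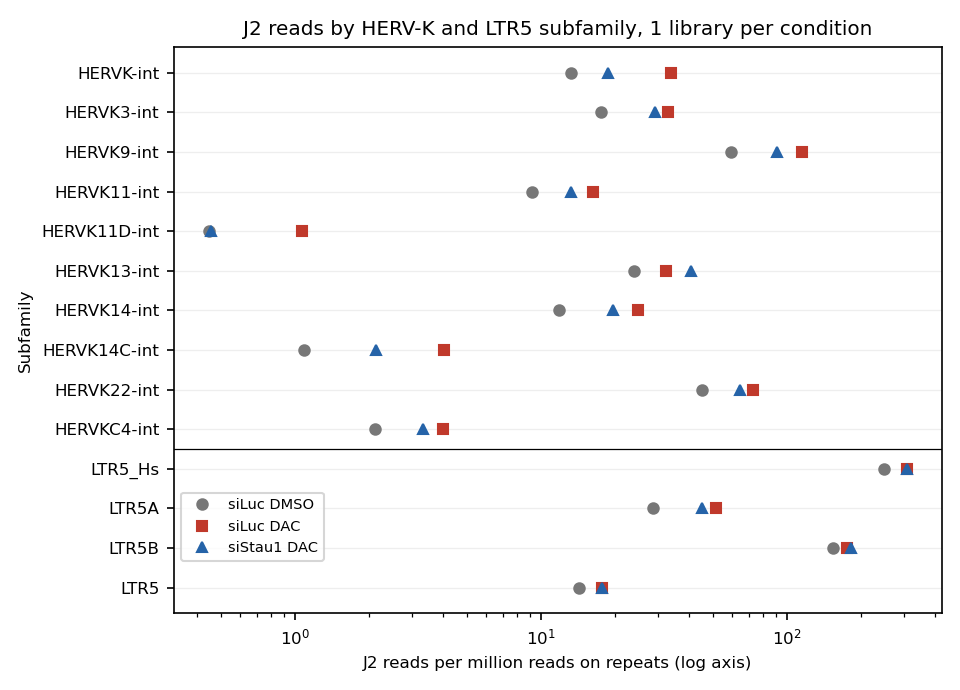
J2 reads per 1000000 reads on repeats (RPM) (log axis) for each of the 14 subfamilies, with 1 point per library: siLuc DMSO (grey circles), siLuc DAC (red squares) and siStau1 DAC (blue triangles). HERVK-int stood at 13.3, 33.7 and 18.8 RPM and LTR5_Hs at 248, 307 and 308; with reads scaled to those outside Alu, LTR5_Hs, LTR5B and LTR5 lay at or below their siLuc DMSO level in siLuc DAC.

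The first comparison set DAC against DMSO in cells with the control siRNA. Internal HERV-K sequence had a log2 ratio of siLuc DAC over siLuc DMSO above 0 in all 10 internal subfamilies and under all 4 scalings tried. Intervals were computed only with reads on repeats as the scale. HERVK-int, the internal part of the youngest proviruses, had 950 reads with siLuc DMSO, 2326 with siLuc DAC and 1558 with siStau1 DAC, or 13.3, 33.7 and 18.8 reads per 1000000 reads on repeats (RPM). The siLuc DAC library was the highest of the 3 and siLuc DMSO the lowest, with a log2 ratio of 1.34 between them (95% interval 1.19 to 1.501). LTR5_Hs, the most abundant LTR subfamily of the HERVK-int group, had 17699, 21156 and 25560 reads, or 248, 307 and 308 RPM. Its log2 ratio was 0.31 (0.27 to 0.35), and it turned to -0.01 when reads were scaled to those outside Alu. LTR5A and LTR5B, other LTRs of the group, gave 0.85 (0.74 to 0.97) and 0.19 (0.14 to 0.24). The ratio of HERVK-int was 1.03 above that of LTR5_Hs on the log2 scale, and their intervals do not overlap.

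This gap does not depend on the scaling, since both sets come from the same library. HERVK-int had 5.37 reads for every 100 reads on LTR5_Hs with siLuc DMSO, 11.0 with siLuc DAC and 6.10 with siStau1 DAC. All 10 internal subfamilies together had 41.4, 61.0 and 51.1 reads per 100 reads on the 4 LTR5 subfamilies. By both measures siLuc DAC was the highest library and siLuc DMSO the lowest. For HERVK-int per 100 LTR5_Hs reads, siStau1 DAC lay closer to siLuc DMSO than to siLuc DAC. With reads on repeats as the scale, the HERVK-int log2 ratio of siStau1 DAC over siLuc DMSO was 0.50 (0.33 to 0.66).

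HERVK9-int, the most abundant internal subfamily, had 4247 reads with siLuc DMSO, 7921 with siLuc DAC and 7570 with siStau1 DAC, or 59.4, 115 and 91.2 RPM. The log2 ratio of siLuc DAC over siLuc DMSO was 0.95 (0.87 to 1.03). HERVK22-int had 3217, 5034 and 5346 reads, and 0.70 (0.61 to 0.79). HERVK3-int had 1256, 2256 and 2425 reads, and its ratio of 0.90 (0.75 to 1.04) was 1.10 without its most abundant element. In all 3 subfamilies both DAC libraries lay above siLuc DMSO.

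HERVK14-int had 849 reads with siLuc DMSO, 1713 with siLuc DAC and 1638 with siStau1 DAC, with a log2 ratio of siLuc DAC over siLuc DMSO of 1.06 (0.90 to 1.24). HERVK11-int had 656, 1118 and 1099 reads, and 0.82 (0.62 to 1.02). HERVKC4-int had 152, 277 and 276 reads, and 0.92 (0.50 to 1.34). These subfamilies gave the same order, with siLuc DAC highest in RPM.

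The smallest subfamilies had the widest intervals. HERVK14C-int had 78, 278 and 178 reads and a log2 ratio of 1.88 (1.364 to 2.44), the highest of the 14 subfamilies. HERVK11D-int had 32, 74 and 38 reads, 1.25 (0.38 to 2.21), and 1 element with at least 20 reads. HERVK13-int had 1715, 2233 and 3375 reads, and its ratio of 0.43 (0.30 to 0.56) was the lowest of the internal subfamilies. Reads outside Alu as the scale shift this ratio by -0.32 and reads on LTR elements by -0.31. Both shifts are larger in size than the lower end of its interval. HERVK13-int was also the only internal subfamily with its highest level on the scale of reads on repeats, 40.6 RPM against 24.0 and 32.4, in siStau1 DAC.

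The LTR5 subfamilies differed less between the libraries, apart from LTR5A. LTR5A, an older LTR of the HERVK-int group, had 2039 reads with siLuc DMSO, 3550 with siLuc DAC and 3758 with siStau1 DAC. Its log2 ratio of siLuc DAC over siLuc DMSO was 0.85 (0.74 to 0.97), above 0 under all 4 scalings. LTR5B had 11029, 12149 and 15187 reads and a ratio of 0.19 (0.14 to 0.24), which turned to -0.13 with reads outside Alu and to -0.12 with reads on LTR elements as the scale. The LTR5 subfamily had 1023, 1220 and 1467 reads and a ratio of 0.31 (0.14 to 0.48), which turned to -0.02 and -0.0034 under those scalings. A single element, LTR5_234, with 1014, 1195 and 1437 reads, held between 98.0% and 99.1% of the LTR5 reads in each library.

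**Figure D2:**
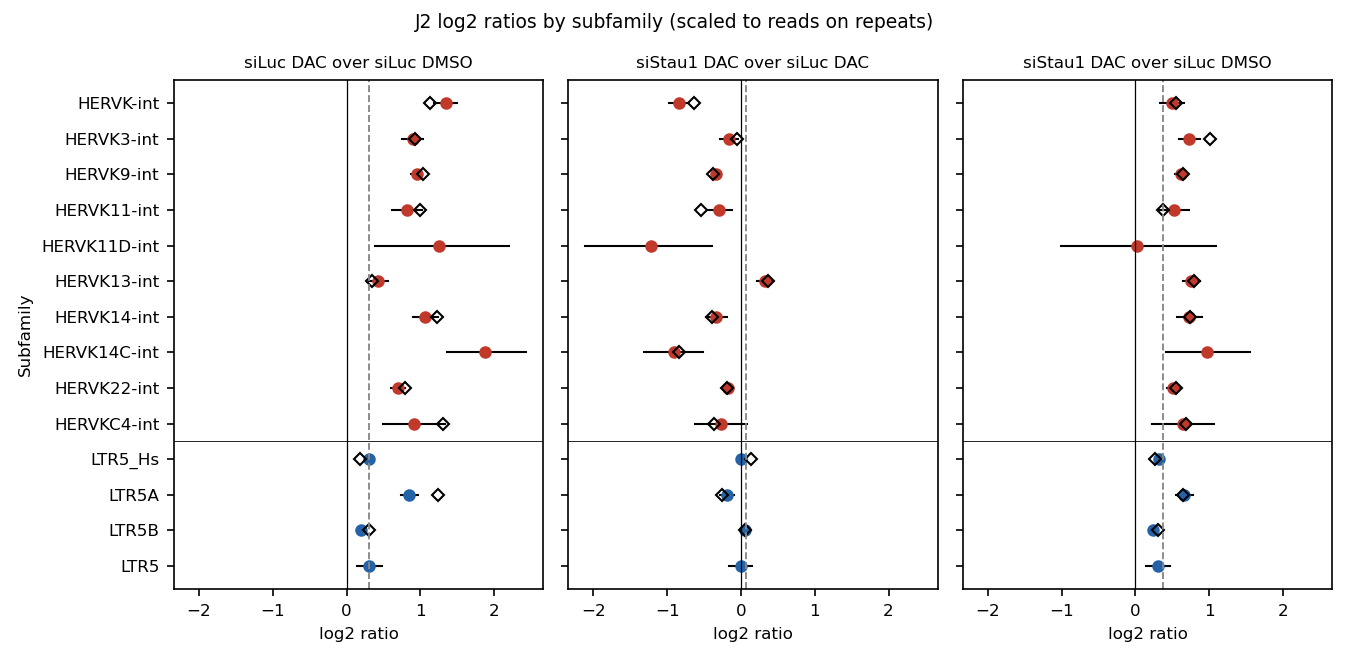
Log2 ratio of J2 reads per subfamily in the 3 pairs of libraries, scaled to reads on repeats; filled circles are ratios of summed reads with 95% counting intervals (red internal, blue LTR5), open diamonds are medians over elements where at least 5 had 20 reads, and the dashed line is the ratio of all LTR elements. In the first panel HERVK-int lies at 1.34 and LTR5_Hs at 0.31, and LTR5_Hs, LTR5B and LTR5 fall below 0 when scaled to reads outside Alu; in the second HERVK-int lies at -0.85.

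Medians over single elements also differed between internal and LTR5 copies. Among 618 HERV-K and LTR5 copies that had 20 or more reads over both libraries, the median log2 ratio of siLuc DAC over siLuc DMSO was 0.60. It was 0.01 over 604858 repeat elements, 343190 of them Alu with a median of -0.32, and 0.65 over the 261668 outside Alu, where all HERV-K and LTR5 copies belong. Over 58899 LTR elements it was 0.57. Elements at least 2-fold higher in siLuc DAC numbered 210 of 618 (34.0%), against 21.3% of all repeat elements, 39.8% of those outside Alu and 36.1% of LTR elements. Elements at least 2-fold lower numbered 51 (8.25%), against 17.0%, 9.71% and 12.6%. As a whole, the group's share of higher elements was therefore near that of LTR elements in general and below that of repeats outside Alu. Of its elements past 2-fold, 80.5% were higher, a share that was 94.6% with the authors' own factors, 63.0% with reads outside Alu and 64.1% with reads on LTR elements as the scale.

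The difference lay between internal copies and LTR5. Among internal HERV-K elements, 137 of 270 (50.7%) were at least 2-fold higher and 10 (3.70%) at least 2-fold lower, with a median log2 ratio of 1.01. Among LTR5 elements, 73 of 348 (21.0%) were higher and 41 (11.8%) lower, with a median of 0.34. The internal share of higher elements was above, and the LTR5 share below, the 39.8% of repeats outside Alu. Over all LTR elements of the genome the internal ones had the lower median, 0.39 against 0.61 for the rest. The other 9 internal subfamilies had a median of 1.01 over 249 elements, so the internal value did not rest on HERVK-int alone.

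LTR5 is the LTR of HERVK-int, while most of the internal copies belong to subfamilies with other LTRs, which were set beside them after the values were seen. These LTRs are the ERVK elements whose names begin with LTR3, MER9, MER11, LTR13, LTR14 or LTR22. Over 979 elements their median log2 ratio of siLuc DAC over siLuc DMSO was 0.55, with 330 (33.7%) at least 2-fold higher. By median and share they lay between the internal copies and LTR5. By summed reads their ratio was 0.19 (0.17 to 0.20), below the 0.31 (0.28 to 0.34) of LTR5. The element with most reads held 55.4% of their reads in siLuc DMSO. The internal median was the higher one in 5 of 6 pairs named for each other. In siStau1 DAC over siLuc DMSO it was the higher one in 4 of the 6 pairs, and in siStau1 DAC over siLuc DAC in 2. In siLuc DAC over siLuc DMSO the median was 1.03 for HERVK9-int and 0.39 for MER9, 1.23 for HERVK14-int and 0.56 for LTR14, and 0.35 for HERVK13-int and 0.09 for LTR13. HERVK11-int and MER11 were closer, at 1.00 and 0.81, as were HERVK3-int and LTR3, at 0.92 and 0.86. HERVK22-int was the exception, with 0.80 against 1.17 for LTR22.

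Within the LTR5 subfamilies LTR5A again stood apart. Its 41 elements had a median log2 ratio of 1.24, with 24 (58.5%) at least 2-fold higher and 4 (9.76%) lower. The 181 LTR5_Hs elements had a median of 0.18, with 27 (14.9%) higher and 22 (12.2%) lower, and the 125 LTR5B elements one of 0.30, with 22 (17.6%) higher and 15 (12.0%) lower. Both LTR5_Hs and LTR5B were below the share of higher elements among all repeats (21.3%) and among those outside Alu (39.8%). SVA elements, composite retroposons that carry sequence derived from an LTR5 copy, had a median of -0.54, and how reads that match both SVA and LTR5_Hs were assigned is not given in the sources used here.

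The element with most reads in each internal subfamily shows how the sums arose. HERVK9-int_34885 had 384 reads with siLuc DMSO, 1296 with siLuc DAC and 1015 with siStau1 DAC, a log2 ratio of siLuc DAC over siLuc DMSO of 1.81 (1.57 to 2.05), and without it the HERVK9-int ratio was 0.83. HERVK22-int_48501 had 879, 1481 and 1377 reads and 0.80 (0.63 to 0.98). HERVK-int_23290 had 245, 558 and 412 reads and 1.24 (0.93 to 1.56). In these 3 elements siLuc DAC was the highest library and siLuc DMSO the lowest.

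HERVK14-int_14139 had 119 reads with siLuc DMSO, 236 with siLuc DAC and 250 with siStau1 DAC, a ratio of 1.04 (0.59 to 1.53). HERVKC4-int_21890_2 had 53, 109 and 123 reads, and 1.09 (0.41 to 1.84). HERVK11D-int_38988 had 8, 42 and 16 reads, and 2.37 (0.88 to 4.45). HERVK3-int_35330_4 differed less, with 436, 558 and 714 reads and 0.41 (0.15 to 0.67). HERVK11-int_21899, with 95, 92 and 106 reads, gave 0.01 (-0.60 to 0.64), an interval that includes 0 although its subfamily was higher as a whole.

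The most abundant LTR copies differed from each other. LTR5_Hs_6334 had 1312 reads with siLuc DMSO, 1245 with siLuc DAC and 1933 with siStau1 DAC, a ratio of siLuc DAC over siLuc DMSO of -0.02 (-0.19 to 0.14). LTR5B_5688 had 1269, 1152 and 1433 reads and -0.09 (-0.25 to 0.08). LTR5_234 gave 0.29 (0.11 to 0.46). These 3 copies differed by less than 2-fold, and the first 2 have intervals that include 0.

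LTR5_Hs_5594, the second most abundant LTR copy and named after its values were seen, had 909 reads with siLuc DMSO, 1865 with siLuc DAC and 1183 with siStau1 DAC. Its ratio of siLuc DAC over siLuc DMSO was 1.09 (0.93 to 1.25), and that of siStau1 DAC over siLuc DAC was -0.92 (-1.08 to -0.78). It held more reads in siLuc DAC than any other HERV-K or LTR5 copy, and LTR5_Hs without it gave 0.25 in siLuc DAC over siLuc DMSO. LTR5A_8621 had 178, 503 and 554 reads and 1.55 (1.19 to 1.91). Of the 10 LTR copies with most reads, 7 were higher in siLuc DAC, with LTR5_Hs_5594 alone past 2-fold, and for 3 of the 10 the interval included 0.

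Among elements with 100 or more reads over both libraries, internal and LTR copies separated at the ends of the distribution. With the minimum of 20 reads both kinds stood at both ends. HERVK22-int_51282 (62 and 0 reads with siLuc DMSO and siLuc DAC) was among the lowest and LTR5A_7736 (2 and 56) among the highest. Of 249 elements with 100 or more reads over both libraries, the 5 with the highest ratio were all internal. HERVK14C-int_2649 led with 10 reads with siLuc DMSO, 98 with siLuc DAC and 49 with siStau1 DAC (3.28, interval 2.03 to 5.03). HERVK3-int_35330_5 had 52, 314 and 185 reads (2.63), and shares its number with HERVK3-int_35330_4, given above at 0.41. HERVK3-int_17345 had 24, 138 and 91 reads (2.55). HERVK9-int_22677 had 31, 163 and 96 reads (2.43), and HERVK-int_45400 had 20, 95 and 38 (2.27). In each of the 5 the siStau1 DAC library lay between the others.

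Among elements with at least 100 reads, the 5 with the lowest ratio were all LTRs. LTR5B_5919 had 155 reads with siLuc DMSO, 0 with siLuc DAC and 259 with siStau1 DAC, which makes siLuc DAC at least 49.8-fold lower with a floor of 3 reads. LTR5B_6197_2 had 103, 4 and 61 reads (log2 ratio -4.47, interval -7.70 to -2.69), and LTR5_Hs_6287 had 124, 16 and 84 (-2.86). LTR5_Hs_6997_2 had 266, 44 and 448 reads (-2.53), and LTR5_Hs_4965 had 240, 49 and 332 (-2.23). All 5 were lower in siLuc DAC than in both other libraries, a pattern that choosing them by a ratio with siLuc DAC favours.

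**Figure D3:**
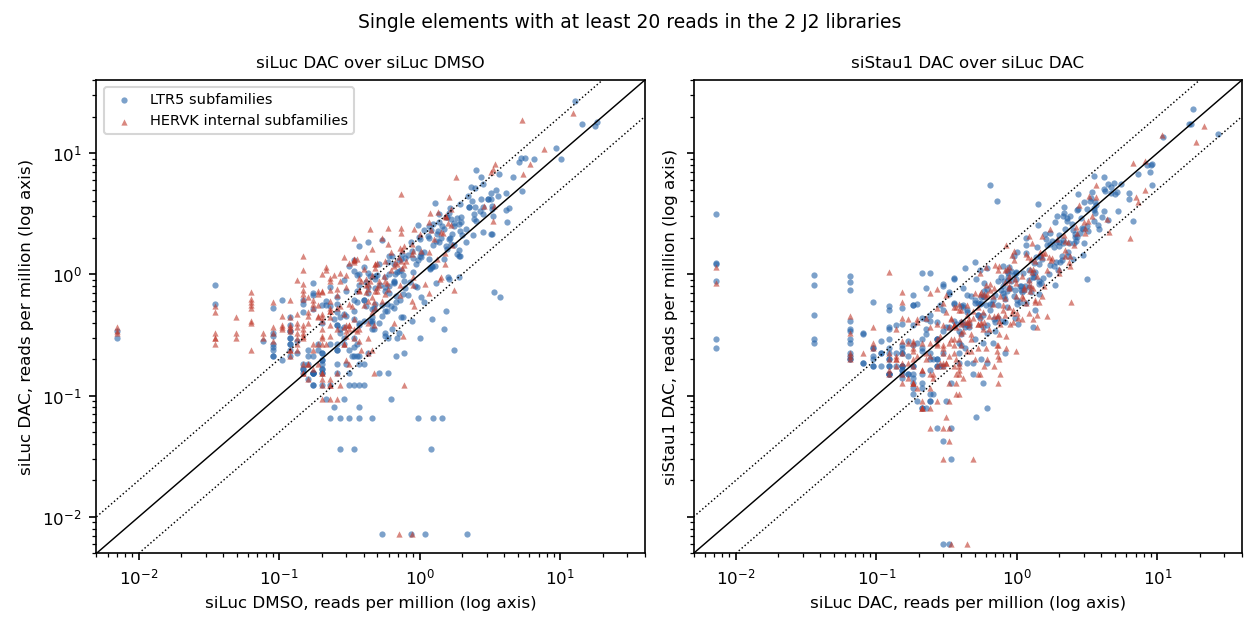
J2 RPM of single elements with 20 or more reads over both libraries (both axes log, 0.5 reads added), siLuc DAC against siLuc DMSO on the left and siStau1 DAC against siLuc DAC on the right; red triangles are internal, blue circles LTR5, the solid line is equality and the dotted lines mark 2-fold. Internal elements lie mostly above equality on the left (137 of 270 at least 2-fold higher), and the points along the bottom on the left, such as LTR5B_5919 with 155 and 0 reads, have no read in siLuc DAC.

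The second comparison set siStau1 against siLuc, both with DAC. Internal HERV-K sequence was less abundant in siStau1 DAC in 9 of 10 internal subfamilies with reads on repeats as the scale and in 7 with reads outside Alu. LTR5_Hs and LTR5 stood near 0 with reads on repeats as the scale, and their sign changed with the scale. HERVK-int was the lowest of the larger subfamilies, with a log2 ratio of -0.85 (-0.98 to -0.71) and below 0 under all 4 scalings. HERVK14C-int gave -0.91 (-1.31 to -0.52) and HERVK11D-int -1.22 (-2.11 to -0.39). HERVK9-int gave -0.33 (-0.40 to -0.27), HERVK14-int -0.33 (-0.47 to -0.19), HERVK11-int -0.29 (-0.47 to -0.12) and HERVKC4-int -0.27 (-0.62 to 0.08), all below 0 under the 4 scalings, although the HERVKC4-int interval includes 0.

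HERVK22-int gave -0.18 (-0.26 to -0.10) and HERVK3-int -0.16 (-0.28 to -0.05), and both turned positive, to 0.027 and 0.045, with reads outside Alu as the scale. HERVK13-int was the exception, higher in siStau1 DAC at 0.33 (0.22 to 0.44) and above 0 under all 4 scalings, though at 0.0052 with the authors' factors. LTR5_Hs stood at 0.00 (-0.03 to 0.04) and LTR5 at -0.00 (-0.16 to 0.15) with reads on repeats as the scale. All 4 LTR5 subfamilies lay above 0 with reads outside Alu. With the authors' factors or reads on LTR elements, 0 of them did. LTR5A was at -0.19 (-0.28 to -0.09), and at 0.023 with reads outside Alu. LTR5B was at 0.05 (0.00 to 0.10), and at -0.27 with the authors' factors and -0.015 with reads on LTR elements.

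Counts over elements also differed between internal and LTR5 copies. Of 684 elements, 87 (12.7%) were at least 2-fold higher in siStau1 DAC and 105 (15.4%) at least 2-fold lower, close to the 15.5% and 14.8% of all repeat elements. Of repeats outside Alu, 13.6% were higher and 22.6% lower, with a median of -0.20. Internal elements were lower in 66 of 301 cases (21.9%) and higher in 23 (7.64%), with a median of -0.27, so their share of lower elements was near that of repeats outside Alu. LTR5 elements were lower in 39 of 383 cases (10.2%) and higher in 64 (16.7%), with a median of 0.02. Of the elements past 2-fold, 45.3% were higher, a share of 30.1% with the authors' factors, 56.3% with reads outside Alu and 41.9% with reads on LTR elements.

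Of 291 elements with 100 or more reads over both libraries, HERVK-int_66450 had the lowest ratio, with 42 reads with siLuc DMSO, 167 with siLuc DAC and 49 with siStau1 DAC (-2.03, interval -2.78 to -1.39). HERVK9-int_23697 had 29, 95 and 30 reads (-1.92), HERVK-int_5017 had 32, 112 and 37 (-1.85), LTR5_Hs_8051 had 24, 90 and 30 (-1.84) and LTR5_Hs_5693 had 98, 216 and 75 (-1.79). In these 5 elements siLuc DAC stood above both other libraries, whose log2 ratio (siStau1 DAC over siLuc DMSO) lay between -0.60 and 0.10. The elements were chosen by a ratio that siLuc DAC enters, so its place is partly fixed by the choice. The element HERVK-int_5017 lies on the line after HERVK-int_23290, and LTR5_Hs_6420, with 331, 436 and 391 reads, on the line before it. Across this run the ratio of siStau1 DAC over siLuc DAC was -0.43 for the LTR, -0.71 for HERVK-int_23290 and -1.85 for HERVK-int_5017.

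Among elements with at least 100 reads, the 5 with the highest ratio were LTRs with few or no reads in siLuc DAC. LTR5B_5919 with 0 and 259 reads, LTR5A_7910 with 0 and 102 and LTR5B_6568_2 with 0 and 100 were at least 71.7-fold, 28.2-fold and 27.7-fold higher in siStau1 DAC. They had 155, 78 and 38 reads in siLuc DMSO. LTR5_Hs_6997_2 and LTR5_Hs_4965, described above, gave 3.06 and 2.48. All 5 also had more reads in siLuc DMSO than in siLuc DAC. They were chosen by a ratio that a low siLuc DAC value raises, so this does not set that library apart.

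Elements without a read in 1 library were counted over all HERV-K and LTR5 copies too. Of 383 HERV-K and LTR5 elements with at least 20 reads in both other libraries, 6 (1.57%) had none in siLuc DAC, against 7605 of 354182 repeat elements (2.15%). None lacked reads in siLuc DMSO (of 421) or in siStau1 DAC (of 356), against 0.202% and 0.0042% of all repeat elements. Besides the 3 LTRs above, the 6 were HERVK22-int_51282 (62, 0 and 94 reads), HERVK3-int_21384 (50, 0 and 70) and LTR5B_5978 (61, 0 and 72), named after their values were seen. The 5 lines before and after LTR5B_5919, leaving out ERVK and Alu elements, held 260, 5 and 313 reads, and those around LTR5A_7910 held 265, 5 and 290. Around LTR5B_5978 they held 22, 0 and 26 reads. Around these 3 elements siLuc DAC was therefore low on nearby lines too. The lines around the other 3 held too few reads for such a comparison, with 9, 2 and 14 for LTR5B_6568_2, 0, 0 and 3 for HERVK22-int_51282 and none for HERVK3-int_21384.

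In the opposite pattern, 3 of 567 elements (0.529%) with at least 10 reads in both DAC libraries had none in siLuc DMSO, against 1.40% of all repeat elements. They were HERVK14-int_767 (0, 17 and 12 reads), HERVK14-int_8565_2 (0, 10 and 15) and LTR5B_438 (0, 23 and 10). This share was below that of repeats in general, a description with no test.

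The third comparison set siStau1 DAC against siLuc DMSO, which differ in both siRNA and drug, and it shares a library with each of the others. The log2 ratio was above 0 in all 14 subfamilies with reads on repeats or the authors' factors as the scale, in 13 with reads outside Alu and in 10 with reads on LTR elements. It was 0.62 (0.58 to 0.66) for internal subfamilies together and 0.32 (0.29 to 0.35) for LTR5 subfamilies together. HERVK14C-int was highest at 0.97 (0.42 to 1.56), followed by HERVK13-int at 0.76 (0.64 to 0.88), HERVK3-int at 0.73 (0.59 to 0.87) and HERVK14-int at 0.73 (0.56 to 0.91). HERVK-int, the highest larger subfamily in siLuc DAC over siLuc DMSO, was here at 0.50 (0.33 to 0.66), below 8 of the other 9 internal subfamilies.

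LTR5A gave 0.67 (0.56 to 0.78), LTR5_Hs 0.31 (0.27 to 0.35), LTR5 0.30 (0.14 to 0.47) and LTR5B 0.25 (0.19 to 0.30). With reads on LTR elements as the scale, LTR5_Hs turned to -0.064, LTR5B to -0.13 and LTR5 to -0.074, while LTR5A stayed above 0. HERVK11D-int was at 0.03 (-1.01 to 1.09) and fell below 0 with reads outside Alu and with reads on LTR elements as the scale. Of 651 elements, 146 (22.4%) were at least 2-fold higher and 18 (2.76%) at least 2-fold lower, against 14.5% and 8.27% of all repeat elements. The shares were 27.0% and 5.29% for repeats outside Alu, 27.7% and 4.85% for LTR elements, and 24.8% and 4.88% for the LTRs of the other HERV-K subfamilies, so the 22.4% lay below all 3. Internal elements were higher in 92 of 277 cases (33.2%), above these shares. LTR5 elements were higher in 54 of 374 cases (14.4%), near the share of all repeats and below the 28.5% of LTR elements that are not internal. Of the elements past 2-fold 89.0% were higher, a share of 98.2%, 83.8% and 63.6% with the authors' factors, reads outside Alu and reads on LTR elements.

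Of 253 elements with 100 or more reads over both libraries, those with the highest ratio were HERVK9-int_26743 (22, 85 and 92 reads, 1.82), HERVK13-int_16842 (96, 223 and 366, 1.71), HERVK22-int_25120 (24, 90 and 92, 1.70), HERVK3-int_17345 (1.68) and LTR5B_4173 (23, 14 and 85, 1.65). Apart from LTR5B_4173 they were internal and high in both DAC libraries. The lowest were all LTRs and moved by less than 2-fold. LTR5B_6197_2 gave -0.97, LTR5_Hs_8633 -0.83 (72, 44 and 47 reads), LTR5_Hs_6287 -0.78, LTR5_Hs_7881_2 -0.68 (113, 65 and 82 reads) and LTR5_Hs_7263 -0.67 (84, 77 and 61 reads). HERVK13-int_30400, the most abundant copy of its subfamily, had 545, 744 and 1158 reads and a ratio of 0.87 (0.66 to 1.09), beside 422, 308 and 646 reads on LTR13_7918 on the line before it.

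Position in the tables allowed LTRs near an internal copy to be set beside the rest, an analysis chosen after the values were seen. The order of lines is not explained, but 120 of 258 HERVK-int elements (46.5%) had an LTR5 element on an adjoining line. Of 701 LTR5_Hs elements, 90 had HERVK-int within 2 lines, and these held 9.21% of LTR5_Hs reads with siLuc DMSO, 9.42% with siLuc DAC and 8.65% with siStau1 DAC. Most J2 reads on LTR5_Hs thus fell on copies with no internal part on nearby lines. Their log2 ratio of siLuc DAC over siLuc DMSO was 0.31 (0.26 to 0.35), and that of the 90 copies near HERVK-int was 0.34 (0.21 to 0.48), with overlapping intervals. Both lay below the 1.34 of all HERVK-int copies together. No ratio was computed for the HERVK-int copies near LTR5_Hs alone, so the gap beside internal copies was not measured.

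LTR5A was higher in siLuc DAC in both positions. The 42 copies near HERVK-int had 432, 820 and 704 reads, with a ratio of siLuc DAC over siLuc DMSO of 0.98 (0.74 to 1.22), and the 264 others had 1607, 2730 and 3054 reads and 0.82 (0.69 to 0.94). In siStau1 DAC over siLuc DAC the copies near HERVK-int gave -0.49 (-0.70 to -0.28) and the others -0.11 (-0.21 to -0.00013). These intervals come close to each other, and the difference between the positions was not tested. LTR5B copies near HERVK-int, 61 of 469, held between 2.38% and 2.77% of LTR5B reads.

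Elements were also set beside the repeats on the 5 lines before and after them, leaving out ERVK and Alu elements. For 154 internal elements with enough reads on both, the median log2 ratio of siLuc DAC over siLuc DMSO was 1.03, and 0.89 for their neighbours, with 83 elements above their own neighbours. For the 16 HERVK-int elements among them the medians were 1.13 and 0.26, with 13 above their neighbours. For 57 HERVK9-int elements the medians were 0.94 and 1.08, with 24 above. For 242 LTR5 elements the medians were 0.38 and 0.61, with 88 above. The median over all repeats outside Alu was 0.65, but over single elements, while each neighbour ratio is of reads summed over the nearby lines. The ratio of summed reads outside Alu was 0.32. The neighbour values are therefore not ranked against either. Transcripts that run through an element cannot be told apart from transcripts that start in it.

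In total RNA, 4 genes carry ERVK names, and 1 of the 2 tested was called by the authors. ERVK13-1 (ENSG00000260565.6, chr16:2660349-2673444 on GRCh38, minus strand, annotated as a processed transcript) stood at 0.902 FPKM with siLuc DMSO, 4.56 with siLuc DAC, 1.77 with siStau1 DMSO and 3.10 with siStau1 DAC. Both DAC groups lay above both DMSO groups. In the authors' deposited table it was 5.05-fold higher with DAC in siLuc cells (q-value 0.0149), where 13.5% of 17504 tested genes were called. It was not called in siStau1 DAC over siStau1 DMSO (q-value 0.531), in siStau1 DAC over siLuc DAC (0.615) or in siStau1 DAC over siLuc DMSO (0.0729), and the difference between the DAC effects with the 2 siRNAs was not tested.

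ERVK3-1 (ENSG00000142396.10, chromosome 19, plus strand, annotated as protein coding) stood at 31.5 FPKM with siLuc DMSO, 48.8 with siLuc DAC, 27.8 with siStau1 DMSO and 48.1 with siStau1 DAC. Both DAC groups were again above both DMSO groups, but the q-values in the authors' deposited table were 0.671 and 0.600 for DAC with siLuc and with siStau1. ERVK9-11 was untested at 0.150 to 0.202 FPKM, and ERVK-28 was listed at 0 in every group. The table gives 1 value per group of 2 libraries, and the spread between replicates is unknown, as is whether the 2 libraries came from separate cultures. How reads that match several related copies were assigned is not given in the sources used here.

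**Figure D4:**
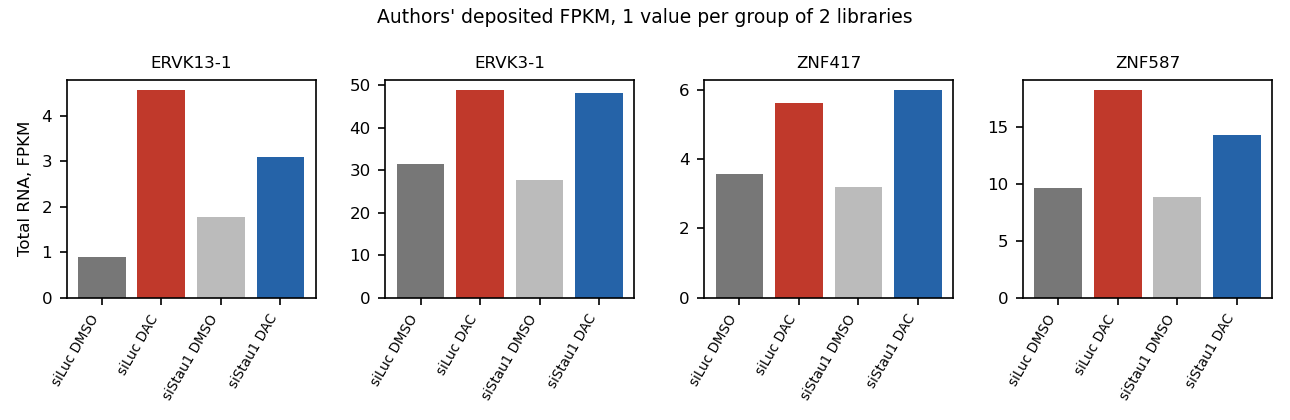
FPKM in the authors' deposited total RNA table, 1 value per group of 2 libraries with no error available, for ERVK13-1, ERVK3-1 and the zinc finger repressors ZNF417 and ZNF587. In each panel both DAC groups are above both DMSO groups, and of these only ERVK13-1 in siLuc DAC over siLuc DMSO (0.902 to 4.56 FPKM) was called.

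Known regulators of HERV-K were looked up in the same table. Of 13 genes, 11 were tested and 0 were called in any of 5 comparisons, where 13.5% (siLuc DAC over siLuc DMSO), 7.46% (siStau1 DAC over siStau1 DMSO), 0.799% and 0.904% (siStau1 over siLuc with DMSO and with DAC) and 4.98% (siStau1 DAC over siLuc DMSO) of all tested genes were. At an unadjusted Cuffdiff p-value under 0.05, 1 of the 11 passed in siLuc DAC over siLuc DMSO and 0 in each of the other 4 comparisons. The lowest q-value in the authors' deposited table was 0.172, for TRIM28, the co-repressor recruited by KRAB zinc finger proteins, at 349 FPKM with siLuc DMSO, 680 with siLuc DAC, 328 with siStau1 DMSO and 486 with siStau1 DAC. ZNF417, a zinc finger repressor of HERV-K, stood at 3.58, 5.63, 3.19 and 5.99 FPKM, and its relative ZNF587 at 9.68, 18.3, 8.87 and 14.4. SETDB1, the histone methyltransferase that acts with TRIM28, stood at 33.1, 29.5, 23.6 and 28.1 FPKM. All of these repressors were expressed in every group. In siLuc DAC over siLuc DMSO they were set beside protein-coding genes of like GC content (within 1 percentage point) at 1 FPKM or more. The log2 ratio (0.1 FPKM added) was 0.96 for TRIM28, and the median of its like genes was 1.10. These values were 0.64 and -0.19 for ZNF417, 0.91 and -0.31 for ZNF587, and -0.17 and 0.22 for SETDB1. The part of GC content was not tested.

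DNMT1, the maintenance DNA methyltransferase and main target of DAC, stood at 115, 86.2, 204 and 79.4 FPKM, with its partner UHRF1 at 19.5 to 24.9. The de novo methyltransferases DNMT3A and DNMT3B stood at 1.79 to 2.99 and 8.65 to 11.2 FPKM. Of the factors known to activate the LTR5 promoter, SP1 stood at 20.6 to 29.4, SP3 at 37.6 to 61.5 and MITF at 0.646 to 1.10 FPKM. The pluripotency factors POU5F1, which binds LTR5_Hs in embryonic cells, and SOX2 were untested and at most 0.399 and 0.144 FPKM.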

How the data were processed

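The members, the lists and the comparisons were chosen with earlier results of these data known. Per the submitters' processing notes, bcl2fastq 2.20, HISAT2 2.1.0, featureCounts, DESeq 1.36.0, Cuffdiff 2.2.1 and Cuffnorm 2.2.1 were used with hg38; the role of each, and the handling of reads that fit several copies, are not given in the sources used here. The authors deposited 3 tables of the same elements, 1 per pair of J2 libraries, without positions. In the deposited siLuc DMSO column 1 is added to each read count. For siLuc DAC and siStau1 DAC the authors multiplied that value by a factor of 1.92 and 1.27 into a signal, and 100% of values gave whole reads on division by the column minimum. The authors' ratio score, a logarithm to base 1.5, was not used.

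Reads were divided by the library's sum over all repeats, and log2 ratios had 0.5 reads added. With 1 library per condition no test and no count model was run. Subfamily ratios have exact 95% Clopper-Pearson intervals with a pair of 2 mates as 1 draw. Single elements needed at least 20 reads in the 2 libraries, and elements at 0 have a floor of 3 reads. Named elements are the most abundant per subfamily and the 5 highest and 5 lowest per pair of libraries among those with at least 100 reads. Total RNA came as FPKM per group with p-values and q-values by the authors in Cuffdiff layout, per the file headers; a q-value under 0.05 is a call. The deposited log2 fold changes and test score were not used, and the folds printed are ratios of the deposited FPKM. Gene positions are from GENCODE release 29. Scripts used Python 3.11.15, pandas 2.3.3, numpy 2.4.6 and scipy 1.17.1. The code for the ratios was run on simulated pairs of mates with counting error only. That run checks the code and cannot speak for the spread between libraries.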

Additional observations from a re-analysis of the deposited data

How the results depend on the processing

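No paired analysis was possible because the J2 data have 1 library per group and the total RNA table has 1 value per group, which also leaves no replicate to leave out. Against the scale of reads on repeats, the authors' factors shift every log2 ratio by 0.89 (siLuc DAC over siLuc DMSO), -0.32 (siStau1 DAC over siLuc DAC) and 0.57 (siStau1 DAC over siLuc DMSO), reads outside Alu by -0.32, 0.21 and -0.11, and reads on LTR elements by -0.31, -0.07 and -0.38. For all HERV-K and LTR5 reads together the log2 ratio of siLuc DAC over siLuc DMSO was 0.50, and 1.39, 0.18 and 0.19 under these scales, with medians over elements of 0.60 (at least 20 reads), 0.56 (10) and 0.63 (50). For siStau1 DAC over siLuc DAC it was -0.09, and -0.41, 0.12 and -0.16, with medians of -0.12, -0.054 and -0.13. For siStau1 DAC over siLuc DMSO it was 0.41, and 0.98, 0.30 and 0.034.

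Of 335 alternative values for the 14 subfamilies, 13 changed the sign of a ratio whose counting interval left out 0; the cause was not tested beyond the shifts above. In siLuc DAC over siLuc DMSO these were LTR5_Hs (-0.013), LTR5B (-0.13) and LTR5 (-0.017) with reads outside Alu, and LTR5B (-0.12) and LTR5 (-0.0034) with reads on LTR elements. In siStau1 DAC over siLuc DAC they were HERVK3-int (0.045), HERVK22-int (0.027) and LTR5A (0.023) with reads outside Alu, and LTR5B (-0.27 with the authors' factors, -0.015 with reads on LTR elements). In siStau1 DAC over siLuc DMSO they were LTR5_Hs (-0.064), LTR5B (-0.13) and LTR5 (-0.074) with reads on LTR elements.

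Elements at least 2-fold higher in siLuc DAC over siLuc DMSO numbered 210, and 128 with a minimum of 50 reads, 564 with none, 422 with the authors' factors and 138 with reads outside Alu; the lower ones numbered 51, and 26, 412, 24 and 81. In siStau1 DAC over siLuc DAC the 87 higher became 41 and 533 with a minimum of 50 reads and with none, and the 105 lower became 52, 391 and, with the authors' factors, 165. In siStau1 DAC over siLuc DMSO the 146 higher became 72, 582 and 325, and the 18 lower 1, 318 and 6. At a q-value under 0.01 the call of ERVK13-1 was lost, leaving 0 ERVK genes. How alike the copies of a subfamily are was not measured, and a read assigned to 1 element may belong to another of similar sequence, which bears on single elements more than on sums.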
